A study of Rattus norvegicus with 8 samples.

Results

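The genes described here are those of complex III, cytochrome c, ATP synthase and the assembly of cytochrome oxidase, as a rat expression array names them. They were taken by symbol alone: every probe whose gene name began with Uqcr, Atp5 or Cox10 to Cox19, or was Cyc1, Cycs, Surf1, Sco1, Sco2 or Atpif1. The rule used no measured value, but the genes were chosen with earlier results of these data known. It found 48 probes for 37 of the 26214 gene names on the array. Of these 37 genes, 8 belong to complex III, 1 is cytochrome c, 17 are listed with ATP synthase, 9 take part in oxidase assembly, and 2 more, Atp5hl1 and Atp5sl, were reached only through their names. Cox10 and Sco2 were not analysed here. All 48 probes passed the filter on dim probes, so all 37 genes were tested.

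RNA came from N27 cells, a rat line derived from fetal mesencephalon, immortalised with SV40 large T antigen and used as a model of dopamine neurons. The study set 3 treatments that act on mitochondria against a control: manganese (Mn) at 150 µM for 48 h, MPP+ at 250 µM for 48 h, and 3-NPA. MPP+ is the active metabolite of MPTP and an inhibitor of complex I, and 3-NPA (3-nitropropionic acid) inhibits succinate dehydrogenase, which is complex II. How much 3-NPA was used and for how long is not stated, nor is a vehicle, so nothing shows that the toxins were matched in dose or time. Each of the 4 groups had 2 arrays, 8 in all, and nothing states that the 2 came from separate cultures. The p-values therefore measure the spread between arrays, which may be technical.

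Complex III passes electrons from ubiquinol to cytochrome c, a small soluble haem protein, which hands them to cytochrome oxidase. Oxidase needs haem a and copper built into its core, and dedicated assembly proteins do this. ATP synthase uses the proton gradient the chain builds up to make ATP, through a membrane rotor, a catalytic head and a stalk that holds the head still. Nerve cells rely on this chain for most of their ATP.

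Levels are log2 intensities with the 75th percentile of each array set to 0, and since probes differ in brightness for reasons other than transcript number, no probe's level is set against another's. The 75th percentile lay between 1026 and 1279 intensity units, between 32711 and 41354 spots per array were well above background with the control arrays lowest, and no spot was saturated. All arrays shared 1 slide and 1 scan. The 3-NPA images were extracted in a later run of the same software, and the groups lay at different slide positions, so that group cannot be told apart from run or position. Th, Slc18a2 and Nr4a2, markers of dopamine neurons, and the general neuronal markers Tubb3, Map2 and Eno2 were well above background in every group, while Slc6a3, Lmx1a, Foxa2, Snap25, Syp, Syt1 and Stmn2 were not in any. Sums of marker levels, in multiples of the 75th percentile, moved between groups for lists of neuronal and other markers alike. That of 7 general neuronal markers was 6.88 to 7.01 in control and 10.7 on both 3-NPA arrays, and that of 9 dopaminergic markers was 0.636 to 0.674 and 0.788 to 0.796. For 6 fibroblast markers it was 1.42 to 1.65 in control, 2.24 to 2.29 with Mn, 1.39 to 1.46 with MPP+ and 3.09 to 3.27 with 3-NPA. For 8 astrocyte markers it was 6.78 to 7.16 in control, 3.53 to 3.64 with Mn, 3.3 to 3.5 with MPP+ and 7.36 to 7.46 with 3-NPA. The control sums of oligodendrocyte (0.172 to 0.176), microglial (0.378 to 0.531) and endothelial markers (0.53 to 0.6) hold many probes at background, with 0 of 8, 3 of 8 and 1 of 6 well above it on both control arrays; with 3-NPA these sums were 0.26 to 0.266, 0.6 to 0.607 and 0.692 to 0.731. Well above background on no array were 2 fibroblast, 2 astrocyte, 2 microglial, 2 endothelial and 1 oligodendrocyte marker. Such sums weigh bright probes most, and markers of the same list moved apart. With 3-NPA, Tubb3 rose (0.28 and 0.37 in control, 2.17 and 2.03) while Map2 fell (-1.39 and -1.42, -1.95 and -2.46). Ndrg2 stayed near control with 3-NPA (2.74 and 2.64, 2.79 and 2.81) while Gja1 fell (-2.02 and -1.98, -2.86 and -2.85). The sums therefore give no measure of cell types. The part of marker genes in the results below was not tested. In bulk RNA, a change in the make-up of a culture and a change in RNA per cell cannot be told apart.

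More of the 37 genes were called with 3-NPA than with Mn or MPP+, and most of those called with 3-NPA fell. Over all 16908 genes, too, more were called with 3-NPA (6474) than with MPP+ (2357) or Mn (1295). Against control, 11 of the 37 fell with 3-NPA and 1 rose (limma over 16908 genes, Benjamini-Hochberg adjusted p below 0.05), where 16% of all genes tested were called lower and 22.3% higher. The median log2 difference over the 37 was -0.27, against 0.05 over all genes, and 34 of the 37 estimates were below 0, against 7845 of 16908. The 11 that fell were Atp5s, Atp5g3, Atp5j, Uqcrc2, Uqcrc1, Cox15, Atp5d, Atp5h, Atp5c1, Cycs and Uqcrfs1, with log2 differences from -1.36 to -0.43. Most of the 37 are bright, and bright genes as a class were lower with 3-NPA: of 6983 genes with a mean level above 0, 22.9% were called lower and 15.1% higher, with a median of -0.08. The 30 bright genes among the 37 had a median of -0.25, and 9 of them were called lower and 0 higher. Without the first 3-NPA array the number called dropped from 12 to 4, without the second to 6, and without the second control array to 7. Atp5s, Atp5g3, Atp5j and Uqcrc1 were called in each of these fits. With each array centred on its median, 13 of the 37 were lower and 0 higher, beside 20.7% of all genes lower and 15.4% higher. With quantile normalization 8 were lower and 2 higher, and 26 of the 37 estimates were below 0.

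Few of the same genes were called with Mn or MPP+. With Mn, 2 of 37 rose (Surf1 and Uqcrq) and 0 fell, where 4.5% of all genes were called higher and 3.16% lower. With MPP+, 1 of 37 fell (Atp5j2) and 0 rose, where 7.47% of all genes were called higher and 6.47% lower. Unadjusted limma p was below 0.05 for 11 of the 37 with Mn, beside 4370 of all 16908 genes. It was so for 11 of the 37 with MPP+ too, beside 5316 of 16908. The medians over the 37 were -0.15 with Mn and -0.02 with MPP+, beside -0.02 and 0.02 over all genes. With each array centred on its median that of MPP+ became 0.09 and its count 0. The 3 comparisons share the same control arrays, so the values are set side by side below without a measure of their likeness. The calls with Mn and MPP+ were unstable. For Mn the count was 0 without the first Mn array or without any single array of MPP+ or 3-NPA, and 1 without the second Mn array or a control array. Without the second control array that 1 call was a fall of Cox15. For MPP+ it was 0 without the second control array, either MPP+ array or either 3-NPA array, and 4 without the first control array.

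**Figure D1:**
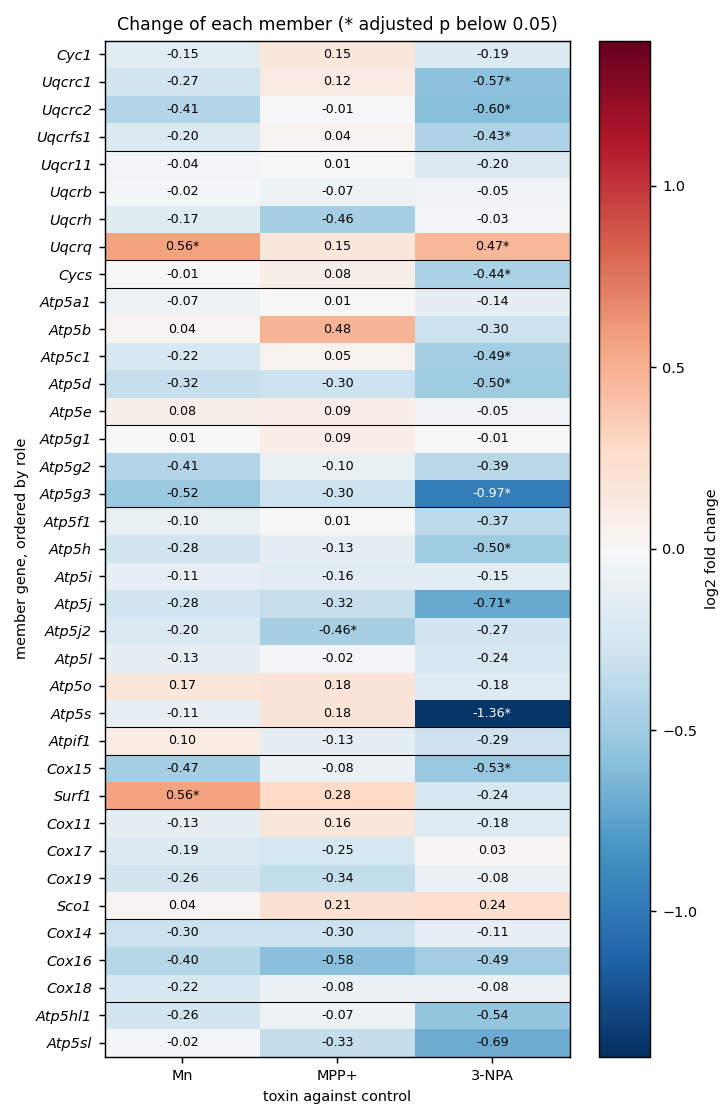
Log2 difference of each of the 37 genes (rows, ordered by role, with lines between roles) in Mn, MPP+ and 3-NPA (columns) against control, blue lower and red higher, n = 2 arrays a group. Stars mark an adjusted p below 0.05: 2 in the Mn column, 1 in the MPP+ column and 12 in the 3-NPA column, 11 of them lower.

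In complex III, 3 of 4 catalytic and core genes fell with 3-NPA (75%, against 16% of all genes), and no small-subunit gene was called lower. The difference between core and small subunits was not tested. Of the 4 catalytic and core genes, 0 were called with Mn or MPP+ by limma. With Mn all 4 estimates were below 0 (median -0.23), 2 of them at an unadjusted p below 0.05, beside 4370 of all 16908 genes. With MPP+ 0 of the 4 had such a p, beside 5316 of 16908. Of 4 small-subunit genes 0 fell in any treatment, and their median 3-NPA difference of -0.04 became 0.12 with quantile normalization. Uqcrc1, a core protein on the matrix side, had levels of 3.4 and 3.22 on the control arrays, 2.99 and 3.10 with Mn, 3.42 and 3.44 with MPP+ and 2.73 and 2.77 with 3-NPA. Both 3-NPA arrays lay below all 6 others, and the log2 difference from control was -0.57 ± 0.10 (SE; limma, adjusted p = 0.00718), which is 1.48-fold lower. Uqcrc2, the second core protein, was at 2.65 and 2.91 in control, 2.41 and 2.32 with Mn, 2.78 and 2.75 with MPP+ and 2.05 and 2.30 with 3-NPA. Its lowest 4 arrays were those of 3-NPA and Mn, and it fell by 0.60 ± 0.13 with 3-NPA (adjusted p = 0.0148), while the Mn difference of -0.41 ± 0.13 was not called (adjusted p = 0.115). Without the first 3-NPA array or the second control array Uqcrc2 was no longer called.

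Uqcrfs1 encodes the Rieske iron-sulfur protein, which takes the first electron from ubiquinol. Its levels were 3.43 and 3.69 in control, 3.32 and 3.41 with Mn, 3.60 and 3.60 with MPP+ and 3.07 and 3.20 with 3-NPA. The 3-NPA arrays were again the lowest, with a difference of -0.43 ± 0.12 (adjusted p = 0.0325) that was no longer called with quantile normalization or without either 3-NPA array, either MPP+ array or the second control array. Cyc1, the cytochrome c1 that carries electrons onward, read 6.14 and 6.51 in control, 6.32 and 6.03 with Mn, 6.44 and 6.50 with MPP+ and 6.20 and 6.08 with 3-NPA. Its control arrays differed by more than the group means did, the groups overlapped, and the 3-NPA difference of -0.19 had a 95% interval from -0.58 to 0.21, which holds 0 and also the falls of Uqcrc1 and Uqcrfs1.

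The small subunits surround the core and are not catalytic. Uqcrb, Uqcr11 and Uqcrh had 3-NPA differences of -0.05, -0.20 and -0.03, none of them called. Uqcrh, the hinge protein between cytochrome c1 and cytochrome c, stood at 5.86 and 6.14 in control, 5.88 and 5.79 with Mn, 5.50 and 5.59 with MPP+ and 6.01 and 5.93 with 3-NPA. The MPP+ arrays were the lowest of the 8, with a difference of -0.46 ± 0.12 from control that narrowly missed the threshold (adjusted p = 0.0536). Uqcrq was the exception in direction: -4.07 and -4.29 in control, -3.70 and -3.55 with Mn, -4.04 and -4.02 with MPP+ and -3.64 and -3.78 with 3-NPA. All 4 Mn and 3-NPA arrays lay above the others, and it rose by 0.56 ± 0.12 with Mn (adjusted p = 0.0439) and by 0.47 ± 0.12 with 3-NPA (adjusted p = 0.0229). The probe was dim, well above background on 1 of the 2 control arrays, and neither call held with normexp background correction, nor the 3-NPA call with each array centred on its median. The 3-NPA call was also lost without the second control array or any single array of MPP+ or 3-NPA, and the Mn call without any single array other than the first control array.

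Cycs, the somatic cytochrome c that carries electrons to oxidase and starts apoptosis when it leaves the mitochondrion, fell with 3-NPA. Its brightest probe read 4.80 and 5.04 in control, 4.94 and 4.89 with Mn, 5.05 and 4.96 with MPP+ and 4.45 and 4.51 with 3-NPA. The 6 other arrays lay within a narrow band above the 3-NPA pair, and the difference from control was -0.44 ± 0.11 (adjusted p = 0.0237), no longer called with quantile normalization, without either 3-NPA array or without the second control array. The differences with Mn and MPP+ were -0.01 and 0.08. A second Cycs probe, at 4.42 and 4.78 in control and 4.02 and 3.57 with 3-NPA, gave -0.80 with a wider error and was not called in the fit over all probes (adjusted p = 0.0798).

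**Figure D2:**
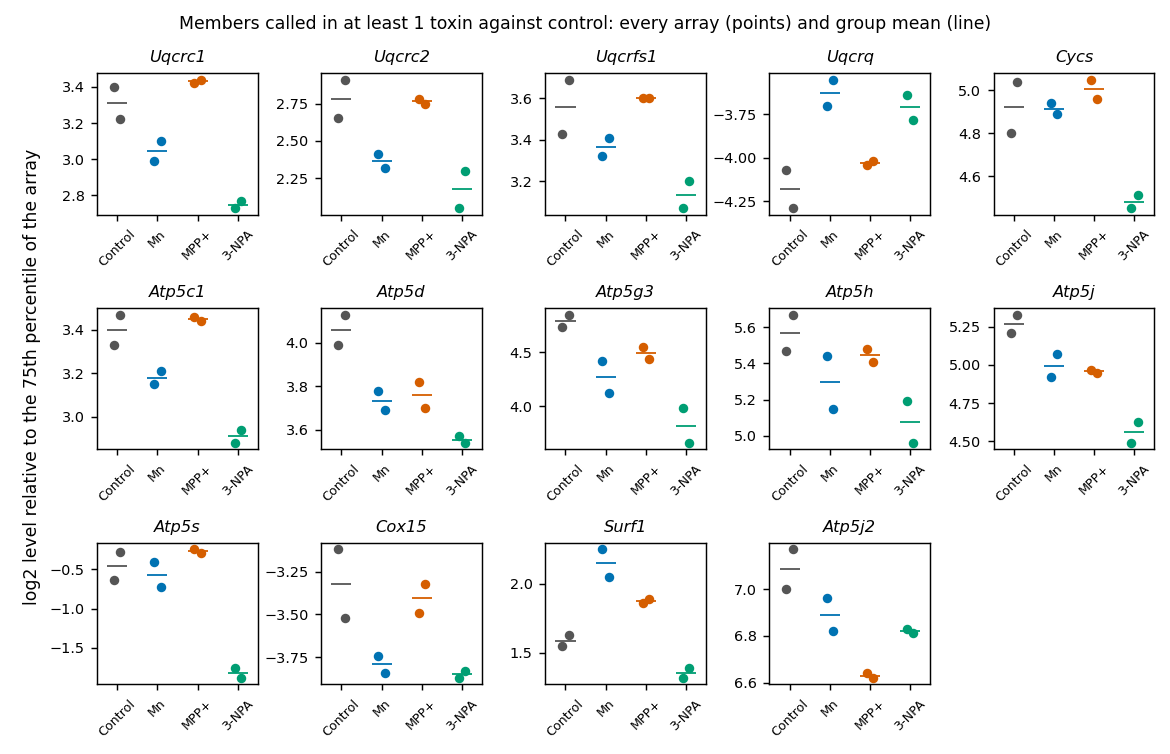
Log2 level relative to the 75th percentile of the array (vertical axis, a separate scale in each panel) of the 14 genes called in at least 1 treatment against control, by group (horizontal axis). Points are arrays and lines are group means: both 3-NPA arrays lie below both control arrays for the 11 genes that fell, and the 2 Mn arrays of Surf1 lie above all others. The genes were picked by calls on these same arrays, so such separation is no further support. Of all 16908 genes, 12151 had 3-NPA and control arrays that did not overlap, in either direction.

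Of the 17 genes listed with ATP synthase, 6 fell with 3-NPA (35.3%, against 16% of all genes). All 17 estimates were below 0 with a median of -0.30, though 15 were with normexp background correction and 14 with quantile normalization; 6 of 17 were called lower and 0 higher. For the 15 that encode parts of the enzyme itself, which leaves out Atp5s and the inhibitor Atpif1, the count was 5 of 15. With Mn 0 of 17 were called, and 3 had an unadjusted limma p below 0.05, beside 4370 of all 16908 genes. With MPP+ 1 of 17 fell (5.88%, against 6.47% of all genes). In the catalytic head (F1), 2 of 5 genes fell with 3-NPA (40%, against 16%). Atp5c1 is the gamma subunit, the shaft that turns within the head. It read 3.33 and 3.47 in control, 3.15 and 3.21 with Mn, 3.46 and 3.44 with MPP+ and 2.88 and 2.94 with 3-NPA. The 3-NPA pair was lowest, and the fall was 0.49 ± 0.09 on the log2 scale (adjusted p = 0.00887), lost without the first 3-NPA array.

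Atp5d, the delta subunit at the foot of that shaft, was at 3.99 and 4.13 in control, 3.78 and 3.69 with Mn, 3.82 and 3.70 with MPP+ and 3.57 and 3.54 with 3-NPA. Every treated array lay below both control arrays, but only the 3-NPA difference, -0.50 ± 0.10, was called (adjusted p = 0.0102). That call was lost without either 3-NPA array, and the Mn and MPP+ differences were -0.32 (adjusted p = 0.105) and -0.30 (adjusted p = 0.0963). Atp5a1, the alpha subunit, and Atp5e, the epsilon subunit, had 3-NPA differences of -0.14 and -0.05. Atp5b, the beta subunit that holds the catalytic sites, read 2.78 and 2.83 in control, 2.69 and 2.99 with Mn, 3.20 and 3.36 with MPP+ and 2.41 and 2.59 with 3-NPA; it is described in full after its values were seen. Its MPP+ arrays were the highest and its 3-NPA arrays the lowest, and neither difference from control was called (0.48 ± 0.14, adjusted p = 0.0713, and -0.30 ± 0.14, adjusted p = 0.131).

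The c subunit of the rotor ring is made from 3 genes, Atp5g1, Atp5g2 and Atp5g3, whose mature proteins are the same while their import sequences differ, and 1 of the 3, Atp5g3, fell with 3-NPA; differences between the 3 genes were not tested. Atp5g3 has probes that are near copies of each other. They are shown because the fall of this gene was among the largest here. Both probes read lower with 3-NPA, but the call rests on which of them is read. Capitals mark bases that are the same in both after a shift of 12 bases, 43 of the 48 aligned.

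Atp5g3 brightest probe: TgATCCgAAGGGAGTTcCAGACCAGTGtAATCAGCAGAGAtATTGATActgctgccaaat
Atp5g3 second probe: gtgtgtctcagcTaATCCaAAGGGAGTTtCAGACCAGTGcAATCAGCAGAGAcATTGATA

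The brightest probe maps to chr3:56512525-56512584 on the minus strand of rn4, and the file gives no position for the second; which transcript copy each one binds was not tested. Levels of the brightest probe were 4.73 and 4.85 in control, 4.42 and 4.12 with Mn, 4.55 and 4.44 with MPP+ and 3.98 and 3.66 with 3-NPA. Every treated array was below both control arrays and the 3-NPA arrays were lowest. The 3-NPA difference was -0.97 ± 0.16 (adjusted p = 0.00534), a 1.96-fold lower level. The Mn and MPP+ differences, -0.52 (adjusted p = 0.103) and -0.30 (adjusted p = 0.251), were not called. The second probe read 1.33 and 1.4 in control, -0.02 and 1.1 with Mn, 1.23 and 1.14 with MPP+ and -0.39 and 0.66 with 3-NPA. Its arrays within the Mn and 3-NPA groups lay far apart, and its difference of -1.23 was not called (adjusted p = 0.0764 over all probes).

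Atp5g1 stayed near its control level: 5.49 and 5.52 in control, 5.57 and 5.47 with Mn, 5.63 and 5.57 with MPP+ and 5.48 and 5.51 with 3-NPA. Its 3-NPA difference was -0.01, with a 95% interval from -0.22 to 0.19 that excludes a fall of the size measured for Atp5g3. Atp5g2 read 6.4 and 6.64 in control, 5.87 and 6.36 with Mn, 6.42 and 6.42 with MPP+ and 5.85 and 6.4 with 3-NPA by its brightest probe. The first arrays of Mn and 3-NPA were low and the second were not, so its difference of -0.39 ± 0.23 was not called (adjusted p = 0.231). Its other probe, at 5.79 and 5.72 in control and 5.72 and 5.68 with 3-NPA, gave -0.05.

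Of the peripheral stalk and the rest of the membrane sector, Atp5j and Atp5h fell with 3-NPA. Atp5j encodes factor 6 of the stalk and read 5.21 and 5.33 in control, 4.92 and 5.07 with Mn, 4.97 and 4.95 with MPP+ and 4.49 and 4.63 with 3-NPA. All 6 treated arrays lay below both control arrays, the 3-NPA arrays furthest. The 3-NPA difference was -0.71 ± 0.10 (adjusted p = 0.00377), while those of Mn, -0.28 (adjusted p = 0.163), and MPP+, -0.32 (adjusted p = 0.0989), were not called. Atp5h, the d subunit of the stalk, which is described after its values were seen, stood at 5.47 and 5.67 in control, 5.44 and 5.15 with Mn, 5.48 and 5.41 with MPP+ and 5.19 and 4.96 with 3-NPA. It fell by 0.50 ± 0.14 with 3-NPA (adjusted p = 0.0382), a call lost with normexp background correction, with quantile normalization and without any one of the control, MPP+ or 3-NPA arrays. Atp5f1 and Atp5o, the b subunit and the oligomycin sensitivity protein of the same stalk, had 3-NPA differences of -0.37 (adjusted p = 0.067) and -0.18 (adjusted p = 0.224).

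Atp5j2, the f subunit in the membrane, was the 1 gene that fell with MPP+, a call lost in 9 of 21 other settings. Its brightest probe read 7.0 and 7.17 in control, 6.96 and 6.82 with Mn, 6.64 and 6.62 with MPP+ and 6.83 and 6.81 with 3-NPA. The MPP+ arrays were the lowest 2, and the difference was -0.46 ± 0.10 (adjusted p = 0.0344). A second probe gave -0.62 (adjusted p = 0.047 over all probes), with MPP+ arrays of 4.06 and 4.01 against control arrays of 4.54 and 4.77. Atp5i and Atp5l, the e and g subunits that help the enzyme dimerise, had 3-NPA differences of -0.15 and -0.24 and were not called in any treatment. Atpif1, which blocks the enzyme from running backward when the gradient fails, read 4.91 and 5.03 in control, 5.17 and 4.97 with Mn, 4.85 and 4.83 with MPP+ and 4.69 and 4.67 with 3-NPA. The 3-NPA arrays were the lowest, with a difference of -0.29 ± 0.10 from control that was not called (adjusted p = 0.0734).

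Atp5s showed the largest difference among the 37 genes, and it is not an enzyme subunit. The RefSeq symbol is now Dmac2l; its product was first described as coupling factor B of ATP synthase. Levels were -0.64 and -0.28 in control, -0.41 and -0.73 with Mn, -0.25 and -0.30 with MPP+ and -1.76 and -1.88 with 3-NPA. The 6 other arrays overlapped freely and the 3-NPA pair stood a full log2 unit below them, with a difference of -1.36 ± 0.16 (adjusted p = 0.00191), or 2.57-fold lower. The call held in each of 20 other settings, with differences from -1.55 to -1.18. Its single probe maps to chr6:91798434-91798493 on the plus strand of rn4 and is shown because the largest change rests on it alone.

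Atp5s probe: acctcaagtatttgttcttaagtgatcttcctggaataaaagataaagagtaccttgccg

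Few oxidase assembly genes were called: Cox15 fell with 3-NPA and Surf1 rose with Mn. Of the 9 genes, 1 fell with 3-NPA (11.1%, against 16% of all genes) and 1 rose with Mn (11.1%, against 4.5%). The medians were -0.11 with 3-NPA and -0.22 with Mn. With MPP+ 0 were called, and 6 had an unadjusted limma p below 0.05, beside 5316 of all 16908 genes. Cox15 makes haem a, the cofactor of the oxidase core. It read -3.12 and -3.52 in control, -3.74 and -3.84 with Mn, -3.49 and -3.32 with MPP+ and -3.87 and -3.83 with 3-NPA. The Mn and 3-NPA arrays shared the low end, and the 3-NPA difference of -0.53 ± 0.15 was called (adjusted p = 0.0347) while that of Mn, -0.47 ± 0.15, was not (adjusted p = 0.117). The 3-NPA call was lost without the first control array, either Mn array, either MPP+ array or either 3-NPA array.

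Surf1 helps place haem a in the oxidase, and its loss in people causes Leigh syndrome. It read 1.55 and 1.63 in control, 2.25 and 2.05 with Mn, 1.86 and 1.89 with MPP+ and 1.32 and 1.39 with 3-NPA over 10 spots per array. The 4 groups did not overlap, with Mn highest and 3-NPA lowest. The Mn difference was 0.56 ± 0.10 (adjusted p = 0.03), 1.47-fold higher, and those of MPP+, 0.28 (adjusted p = 0.119), and 3-NPA, -0.24 (adjusted p = 0.114), were not called. The Mn call was kept in 10 of 21 other settings and lost without either control array, the first Mn array, either MPP+ array or either 3-NPA array.

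None of the 4 genes of copper delivery to the oxidase was called against control by its brightest probe. With MPP+, 3 of the 4 had an unadjusted limma p below 0.05, beside 5316 of all 16908 genes. Cox17, the copper chaperone of the intermembrane space, read 5.37 and 5.53 in control, 5.27 and 5.25 with Mn, 5.19 and 5.21 with MPP+ and 5.43 and 5.53 with 3-NPA. Its Mn and MPP+ arrays were lower than the rest, with differences of -0.19 (adjusted p = 0.263) and -0.25 (adjusted p = 0.132). Sco1, which loads copper into the oxidase, read 0.70 and 0.67 in control, 0.71 and 0.74 with Mn, 0.90 and 0.88 with MPP+ and 0.89 and 0.96 with 3-NPA. The MPP+ and 3-NPA arrays were all above the rest, though the differences of 0.21 (adjusted p = 0.145) and 0.24 (adjusted p = 0.0604) were not called. A dimmer second Sco1 probe, at -1.37 and -1.27 in control and -0.94 and -0.91 with 3-NPA, was called higher with 3-NPA in the fit over all probes (0.39, adjusted p = 0.0484).

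Cox11, which fills the other copper site of the oxidase, read by its brightest probe -2.82 and -3.10 in control, -3.27 and -2.90 with Mn, -2.75 and -2.85 with MPP+ and -3.20 and -3.09 with 3-NPA, with overlap between control and every treatment. A second, dimmer Cox11 probe gave -0.39 with MPP+ and with 3-NPA, without overlap with control. Neither was called in the limma fit over all probes (adjusted p = 0.135 and 0.0822). Cox19, Cox14, Cox16 and Cox18 were not called against control. The nearest to the threshold among them was Cox16 with 3-NPA, at -0.49 (adjusted p = 0.0505), beside -0.58 with MPP+ (adjusted p = 0.0603). The 2 genes reached only by name, Atp5hl1 and Atp5sl (now Dmac2 in RefSeq), had 3-NPA differences of -0.54 and -0.69, both with adjusted p = 0.119.

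Of the 37 genes, 9 carried several probes, which show how far a call depends on the probe. Atp5j2 was called lower with MPP+ by both. Atp5g3, Cycs and Sco1 were called with 3-NPA by 1 of their 2 probes, and no pair was called in opposite directions. Neighbouring probes of Uqcr11 share 30 bases, and those of Atp5l share 21 of 22 aligned, so these do not measure apart. The dimmest Cox11 probe was not well above background on either control array and gives no size.

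**Figure D3:**
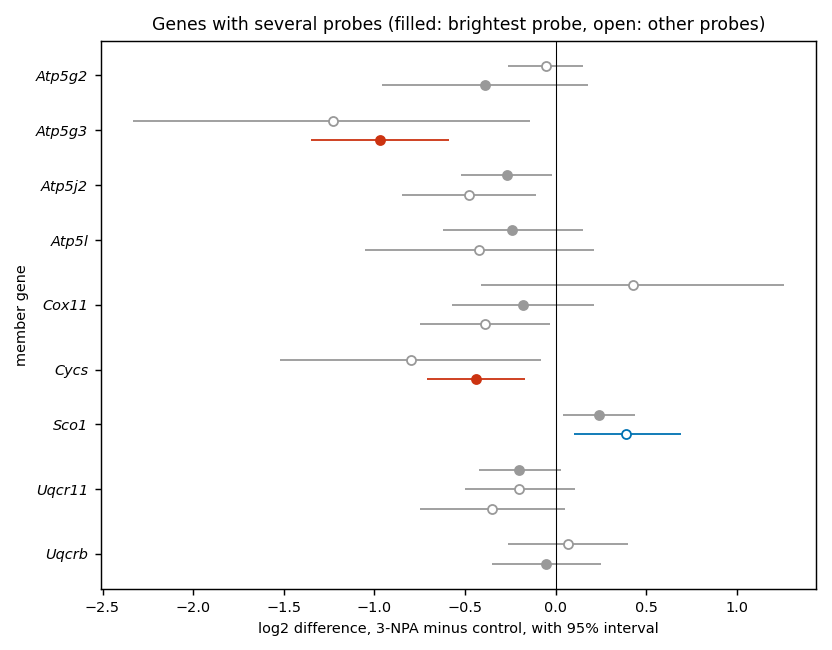
Log2 difference of 3-NPA from control (horizontal axis) with its 95% interval for each probe of the 9 genes with several probes (vertical axis), filled for the brightest and open for the others, red called lower and blue called higher in the fit over all probes. The 2 Atp5g3 points lie at -0.97 and -1.23, the 2 Cycs points at -0.44 and -0.80, and of the 2 Sco1 points the open one, at 0.39, is called.

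Set directly against MPP+, 3-NPA again gave mainly lower levels; the comparison shares its 3-NPA arrays with that against control. Against MPP+, 11 of 37 genes were lower with 3-NPA and 1 higher, where 12.9% of all genes were called lower and 18.1% higher, and the median was -0.30 against 0.03. Among the 6983 bright genes 17.3% were lower, and among the 30 bright members 10 were lower and 1 higher. Atp5s differed most (-1.55 ± 0.16, adjusted p = 0.00165), followed by Atp5b (-0.78 ± 0.14, adjusted p = 0.00913), Uqcrc1 (-0.69 ± 0.10, adjusted p = 0.0049) and Atp5g3 (-0.67 ± 0.16, adjusted p = 0.0224). Atp5c1 was lower by -0.54 ± 0.09 (adjusted p = 0.00808). The others were Uqcrc2, Cycs, Surf1, Uqcrfs1, Atp5j and Atp5o. Uqcrh was higher with 3-NPA by 0.43 ± 0.12 (adjusted p = 0.039), its MPP+ arrays being the low ones, a call lost with median centring, with no filter on dim probes and without any single Mn, MPP+ or 3-NPA array. The number called was 3 without the first 3-NPA array, 5 without the second, and 3 and 2 without the first and second MPP+ array. Atp5s and Uqcrc1 were called in each of these fits. With each array centred on its median, 20 of 37 were lower and 0 higher, beside 26.9% and 10.3% of all genes. With quantile normalization 11 were lower and 4 higher, the median over the 37 was -0.10, and its distance from that of all genes was -0.07 in place of -0.33.

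Against Mn, 5 of 37 genes were lower with 3-NPA and 0 higher, where 11.7% of all genes were called lower and 16.9% higher, and the median was -0.14 against 0.06. These were Atp5s (-1.25 ± 0.16, adjusted p = 0.00343), Surf1 (-0.80 ± 0.10, adjusted p = 0.00317), Atp5j (-0.43 ± 0.10, adjusted p = 0.0265), Cycs (-0.43 ± 0.11, adjusted p = 0.0312) and Atpif1 (-0.39 ± 0.10, adjusted p = 0.0362). Atp5s and Surf1 were called in each of the 20 other settings, whereas the count was 2 without either MPP+ or either 3-NPA array and 8 without either control array. With each array centred on its median, 10 of 37 were lower, beside 20.6% of all genes lower and 10.2% higher. The falls of Uqcrc1, Uqcrc2 and Atp5g3 against control had no called counterpart against Mn, where they were at -0.30 (adjusted p = 0.0726), -0.19 (adjusted p = 0.334) and -0.45 (adjusted p = 0.0803). MPP+ and Mn differed in 0 of 37 genes by limma, where 4.22% of all genes were called higher and 4.88% lower with MPP+. An unadjusted p below 0.05 was found for 9 of the 37, beside 4781 of all 16908 genes. The closest was Uqcrc1, 0.39 ± 0.10 higher with MPP+ (adjusted p = 0.0651).

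**Figure D4:**
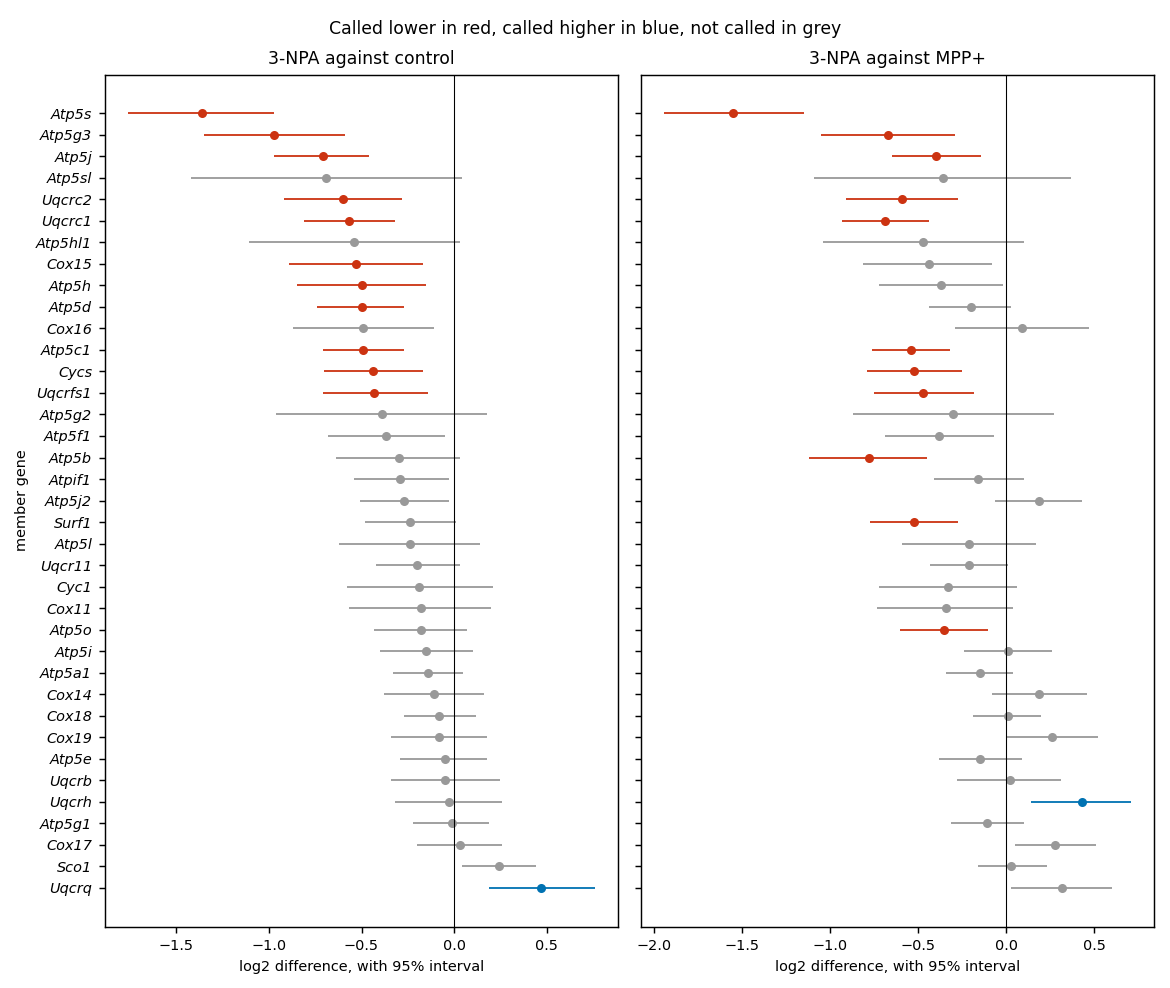
Log2 difference with its 95% interval (horizontal axis) for the 37 genes (vertical axis, ordered by the 3-NPA against control difference), 3-NPA against control on the left and 3-NPA against MPP+ on the right, red called lower, blue called higher and grey not called. Each panel has 11 red points and 1 blue, which is Uqcrq on the left and Uqcrh on the right, and Atp5s lies furthest left in both.

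Genes that work beside the 37 were read from the same fit, where 22.3% of all genes were called higher and 16% lower with 3-NPA. Complex I subunits, which feed electrons into the chain, fell with 3-NPA in 13 of 36 tested and rose in 0, with a median of -0.27; the lowest p belonged to Ndufs8 (-0.77 ± 0.13, adjusted p = 0.00651), Ndufa3 (-0.47 ± 0.08, adjusted p = 0.0071) and Ndufs3 (-0.41 ± 0.08, adjusted p = 0.0106). With Mn and with MPP+, 0 of 36 were called. At an unadjusted limma p below 0.05 were 4 and 7 of the 36, beside 4370 and 5316 of all 16908 genes. In complex II, the target of 3-NPA, 1 of 5 genes fell with 3-NPA, the iron-sulfur subunit Sdhb (-0.41 ± 0.09, adjusted p = 0.0171). Of the subunits of oxidase itself, 2 of 13 were higher (15.4%, below the share of all genes) and 0 lower with 3-NPA. These were Cox6a2 (3.47 ± 0.16, adjusted p = 0.000122), a heart and muscle form, and Cox7a2l (0.36 ± 0.09, adjusted p = 0.0258), which helps join complexes III and IV. With Mn 1 of 13 was higher (7.69%, against 4.5% of all genes), and with MPP+ 2 of 13 (15.4%, against 7.47%). The largest difference in the list was 2.31 with Mn and 6.27 with MPP+, so large rises were not particular to 3-NPA.

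The proteins that assemble these complexes were mixed. Of all genes, 22.3% were called higher and 16% lower with 3-NPA. The shares were 7.47% and 6.47% with MPP+, and 4.5% and 3.16% with Mn. For ATP synthase assembly 2 of 5 genes were called higher with 3-NPA, Fmc1 (0.69 ± 0.12, adjusted p = 0.00737) and Atpaf1, whose probe was not well above background on the control arrays and gives no size. For complex III assembly 0 of 5 were called with 3-NPA. An unadjusted limma p below 0.05 was found for 1 of the 5, beside 8177 of all 16908 genes. With Mn and with MPP+ 1 of 5 was higher, Lyrm7, a chaperone of the Rieske protein, again from a control level not above background. Of 10 other oxidase assembly genes, 2 fell with 3-NPA, Coa4 (-0.45 ± 0.09, adjusted p = 0.0102) and Taco1 (-0.62 ± 0.18, adjusted p = 0.036; above background on 1 of 2 control arrays), and 1 fell with MPP+, Pet100 (-0.56 ± 0.08, adjusted p = 0.0103). Of 6 carriers that move adenine nucleotides and phosphate, 2 fell with 3-NPA: Vdac3 (-0.49 ± 0.12, adjusted p = 0.0219) and Slc25a5 (-0.40 ± 0.12, adjusted p = 0.0494).

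Oxidase assembly uses haem and copper. Haem synthesis genes were called in both directions, and copper handling genes higher with 3-NPA and lower with MPP+. Of all genes, 22.3% were called higher and 16% lower with 3-NPA, and 7.47% and 6.47% with MPP+. Haem synthesis had 12.5% higher and 25% lower with 3-NPA, and 12.5% each way with MPP+. Copper handling had 33.3% higher with 3-NPA and 33.3% lower with MPP+. Of 8 haem synthesis genes, Fech, the last enzyme of the pathway, rose with 3-NPA (1.1 ± 0.14, adjusted p = 0.0022), while Ppox (-0.74 ± 0.11, adjusted p = 0.00359) and Urod (-0.36 ± 0.09, adjusted p = 0.0238) fell. With MPP+ Fech rose (0.61 ± 0.14, adjusted p = 0.0373) and Urod fell (-0.45 ± 0.09, adjusted p = 0.0269). Of 6 copper handling genes, the exporter Atp7b (0.88 ± 0.09, adjusted p = 0.00108) and the transporter Slc31a2 (0.51 ± 0.08, adjusted p = 0.00575) rose with 3-NPA, whereas Atp7a (-0.60 ± 0.13, adjusted p = 0.0376) and the importer Slc31a1 (-0.86 ± 0.20, adjusted p = 0.0389) fell with MPP+.

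Among 12 regulators of respiratory chain genes, 4 rose with 3-NPA (33.3%, against 22.3% of all genes) and 1 fell (8.33%, against 16%). The coactivator Ppargc1b rose by 1.00 ± 0.16 (adjusted p = 0.00495), and the related Pprc1 by 0.49 ± 0.11 (adjusted p = 0.0176). Nrf1, a transcription factor of many respiratory genes, rose by 0.61 ± 0.15 (adjusted p = 0.0208) and Gabpb2, of the GA-binding protein family, by 0.74 ± 0.18 (adjusted p = 0.024), its probe being above background on 1 of 2 control arrays. Gabpb2 and the 3-NPA value of Polrmt are named after their values were seen. Polrmt, the RNA polymerase of mitochondrial DNA, fell with 3-NPA (-0.46 ± 0.11, adjusted p = 0.0226) and with Mn (-0.61 ± 0.11, adjusted p = 0.0325). Ppargc1b (0.65 ± 0.16, adjusted p = 0.0463) and Pprc1 (0.48 ± 0.11, adjusted p = 0.0412) also rose with MPP+. The V-ATPase, a proton pump of lysosomes that is related in build to ATP synthase but is not mitochondrial, had 6 of 15 genes higher and 1 lower with 3-NPA. Its lowest p values were those of Atp6v1c1 (0.91 ± 0.13, adjusted p = 0.0039), Atp6v1d (0.50 ± 0.10, adjusted p = 0.0104) and Atp6ap2 (0.76 ± 0.15, adjusted p = 0.0106).

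**Figure D5:**
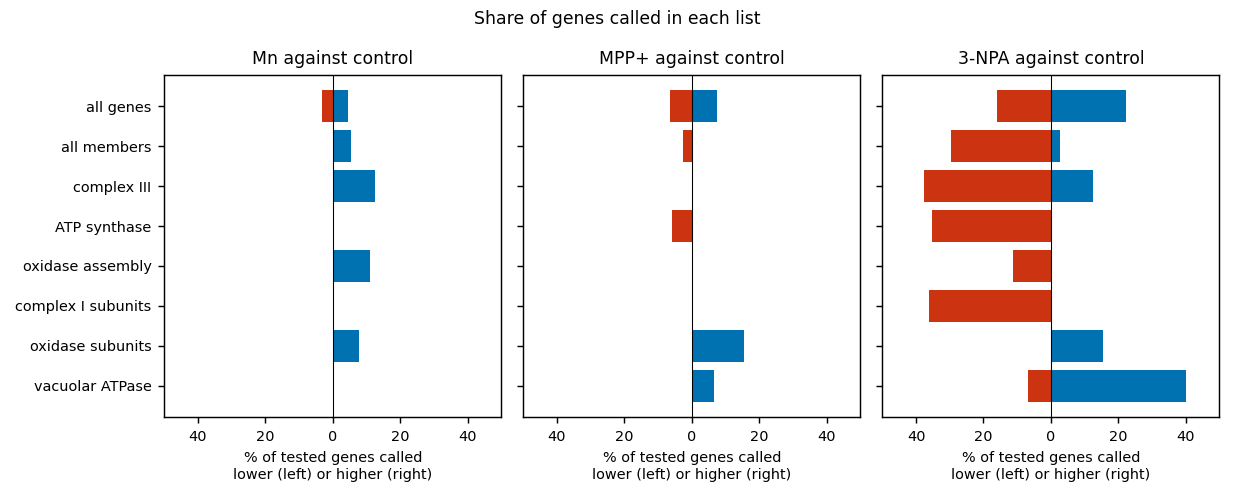
Percent of tested genes called lower (bars to the left, red) or higher (bars to the right, blue) in each list (vertical axis) with Mn, MPP+ and 3-NPA against control; bars start at 0. With 3-NPA, 29.7% of the 37 genes were lower, against 16% of all genes. The share lower was 37.5% in complex III, 35.3% in the ATP synthase genes, 36.1% in complex I subunits and 11.1% in oxidase assembly. Among bright genes as a class, which are not drawn, it was 22.9%. With 3-NPA, 15.4% of oxidase subunits and 40% of V-ATPase genes were higher, against 22.3% of all genes.

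Promoters were read for the 31 of 37 genes that RefSeq's table holds (GRCr8, 250 bases before to 50 after each start), 18 of the 37 symbols being matched under a newer name. Letters of known motifs were searched on both strands, and no motif searched contains another. The NRF1 consensus, given here by name alone, stood in 8 of 31 promoters (25.8%) and in 4.25% of all 33469 promoters, and the ETS letters CCGGAAG in 12 of 31 (38.7%) and in 8.75% of all. The NRF1 search left a base near the middle free, so matched stretches can differ there. The YY1 letters AAGATGG stood in 7 of 31 (22.6%) against 7.01% of all. The SP1 letters GGGGCGGGG stood in 2 of 31 (6.45%) against 9.73%, and the stress element TGATGCAA in 0 of 31 against 0.795%. The median GC content of the 31 was 58.3% against 51.7% over all promoters.

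Split by response, the NRF1 consensus stood in 4 of the 10 genes with a promoter that fell with 3-NPA (Atp5c1, Atp5g3, Cox15 and Uqcrc1) and in 4 of the 21 others (Atp5g2, Atp5i, Atp5o and Cox18). ETS letters stood in 3 of 10 and 9 of 21. These counts are descriptions, and a match in letters is not a bound site. Among the c-ring genes, Atp5g3, which fell, and Atp5g2, which was not called, both hold the NRF1 consensus. Promoters of Uqcrc1, Atp5g3 and Cox15 are shown as those of a complex III core gene, a c-ring gene and an assembly gene that fell, with matches to the NRF1 consensus and the ETS letters, or their reverse complement, in capitals. They lie at chr8:118467973-118468272 (plus strand), chr3:79220615-79220914 (minus strand) and chr1:252571422-252571721 (minus strand) of GRCr8.

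Uqcrc1 promoter: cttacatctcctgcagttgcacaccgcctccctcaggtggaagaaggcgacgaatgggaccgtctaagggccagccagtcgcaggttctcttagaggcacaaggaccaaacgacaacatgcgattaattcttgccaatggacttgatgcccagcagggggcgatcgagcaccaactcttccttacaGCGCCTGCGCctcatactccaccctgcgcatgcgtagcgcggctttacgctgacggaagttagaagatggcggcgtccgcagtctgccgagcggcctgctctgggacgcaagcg
Atp5g3 promoter: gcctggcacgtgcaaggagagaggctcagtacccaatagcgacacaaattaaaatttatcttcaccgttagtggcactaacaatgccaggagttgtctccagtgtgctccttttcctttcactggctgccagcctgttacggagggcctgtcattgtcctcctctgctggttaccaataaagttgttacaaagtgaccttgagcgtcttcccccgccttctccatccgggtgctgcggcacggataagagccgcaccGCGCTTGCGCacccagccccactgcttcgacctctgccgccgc
Cox15 promoter: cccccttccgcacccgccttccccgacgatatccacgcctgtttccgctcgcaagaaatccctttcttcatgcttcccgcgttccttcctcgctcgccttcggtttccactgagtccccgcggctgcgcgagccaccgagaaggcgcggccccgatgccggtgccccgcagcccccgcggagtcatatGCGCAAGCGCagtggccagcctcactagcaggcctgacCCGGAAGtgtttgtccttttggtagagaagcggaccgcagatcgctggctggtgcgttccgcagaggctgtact

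The NRF1 consensus, as searched with a free base, lies in each of the 3 at 1 place, and the ETS letters only in that of Cox15.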

How the data were processed

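Total RNA of 8 N27 samples was labelled with Cy3 and hybridised to 1-colour Agilent rat arrays, per the labels' protocols. Spot intensity values were extracted by the authors with Agilent Feature Extraction 11.5.1.1, with spatial and multiplicative detrending within each array and surrogate values for dim spots, which flatten their differences, per the file headers; probe positions are on rn4. The deposited value table follows log2 intensity (r from 0.9966 to 0.9997) with the 75th percentile near 0; its background steps are not given in the sources used here, and it served as an alternative. From 62976 spots, control and flagged spots were dropped, log2 values of 30328 probes were averaged over spots, and the 75th percentile of each array was set to 0. A probe was tested where 1 or more groups had it well above background on each array, which left 19460, and each of 16908 genes was read from its brightest one. limma 3.58.1 (R 4.3.3) fitted 4 group means to all 8 arrays (4 residual and 2.06 prior degrees of freedom), with Benjamini-Hochberg adjustment within each of 6 comparisons and a threshold of 0.05. The fit was tested on simulated data. An exact permutation test of 2 against 2 arrays cannot go below p = 0.333, so none was used. Alternatives covered background correction, scaling, probe filters, weights, a replicate block and arrays left out.

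The genes and lists were chosen with earlier results of these data known. Per-array values are given for genes called against control (up to 6 per direction), up to 3 per direction between toxins, and set members of each role. Of other lists, up to 3 called genes per comparison are eligible by smallest p. Precision is limited by the number of arrays.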

Additional observations from a re-analysis of the deposited data

How the results depend on the processing

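No called gene changed direction under any alternative run. Numbers of the 37 genes called were as follows where they moved by over 1.5 times. For Mn (2 called) they were 1 with normexp, 1 with only probes above background on all arrays, and 0 with array weights, with the replicate block, with only the 4 arrays compared or with only control, Mn and MPP+ arrays; leaving out 1 array gave 0 to 1. For MPP+ (1 called) they were 5 with normexp, 2 with quantile normalization, 0 with each array's median at 0, 3 with no filter, 4 with only probes above background on all arrays, 2 with every probe, 2 with the replicate block, and 0 with only the 4 arrays compared or only control, Mn and MPP+ arrays; leaving out 1 array gave 0 to 4. For 3-NPA (12 called) it was 6 with only the 4 arrays compared, and 4 to 13 with 1 array left out. For MPP+ against Mn (0 called) it was 1 with normexp, quantile normalization or only probes above background on all arrays, and 0 with any 1 array left out. For 3-NPA against Mn (5 called) it was 10 with the median at 0 and 2 with no filter, and 2 to 8 with 1 array left out. For 3-NPA against MPP+ (12 called) it was 20 with the median at 0, 7 with no filter and 21 with array weights, and 2 to 14 with 1 array left out. The cause was not tested, except that fits on fewer arrays have fewer degrees of freedom. A group left with 1 array was assumed to vary like the others.

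With each array's median at 0, 3-NPA against control gave 15.4% of all genes higher and 20.7% lower, in place of 22.3% and 16%. The median over all genes moved from 0.05 to -0.09 and that over the 37 from -0.27 to -0.41, so their distance stayed at -0.32. For Mn it gave 4.51% higher and 1.94% lower in place of 4.5% and 3.16%, and for MPP+ 9.21% and 3.67% in place of 7.47% and 6.47%. Quantile normalization gave 6.65% and 2.46% for Mn, 10.7% and 5.86% for MPP+. Over all genes, no filter moved the number called from 1295 to 7047 for Mn, 2357 to 8834 for MPP+, 6474 to 11924 for 3-NPA and 1538 to 580 for MPP+ against Mn. With only the 4 arrays compared it was 6, 977 and 308 for Mn, MPP+ and MPP+ against Mn, and with only control, Mn and MPP+ arrays 653, 1285 and 644. Array weights gave 439 for Mn and 7991 for 3-NPA against MPP+ (5239). The quantile-normalized distance of 3-NPA from MPP+ was -0.07, in place of -0.33.

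Deviations of same-numbered arrays correlated at 0.5 between Mn and 3-NPA, and between -0.02 and 0.1 for the other pairs of groups. Mn and 3-NPA arrays of the same number thus shared variation, which the main fit did not model. What the shared replicate numbers stand for was not tested. With them as a replicate block, the 2 genes called for MPP+ were Atp5b, higher, and Cox16, lower, while Atp5j2 was lost (adjusted p = 0.058), and 13 genes were called with 3-NPA, 4 against Mn and 10 against MPP+.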
